A study of Mus musculus with 6 samples.

Results

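The 10 genes described here carry out or control peptide presentation by MHC class I, the route by which nearly every nucleated cell shows fragments of its own proteins to CD8 T cells. They are the heavy chains H2-K1 and H2-D1, the light chain B2m, the peptide transporter genes Tap1 and Tap2, the loading factor Tapbp, the immunoproteasome genes Psmb8, Psmb9 and Psmb10, and the activator Nlrc5. They were chosen by gene symbol for their role, without use of measured values, and all 10 were found among the 23337 symbols counted in each library.

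The data were read counts per gene from mouse alveolar type II (AT2) cells, which make lung surfactant, taken 10 days after acute lung injury by the bacterium Pseudomonas aeruginosa. The mutant group had 3 libraries of genotype SpC-CreER/Dlk1flox/ROSA-Tomato, and the wild-type group had 3 libraries of genotype SpC-CreER/ROSA-Tomato. Both groups thus carried the Cre recombinase driven by the surfactant protein C promoter and the Tomato reporter by which the cells were sorted, both were injured, and only the mutants carried the floxed Dlk1, a gene for a transmembrane relative of Notch ligands. The labels give no strain, age or sex, do not say whether each library came from its own animal, and mention a culture step whose place before RNA isolation is unclear. The p-values therefore measure the spread between these samples, which may in part be technical.

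Class I molecules consist of a polymorphic heavy chain and beta-2 microglobulin. Proteasomes cut cytosolic proteins, and after interferon exposure the catalytic subunits encoded by Psmb5, Psmb6 and Psmb7 are replaced by those of Psmb8, Psmb9 and Psmb10. The TAP1-TAP2 transporter carries the peptides into the endoplasmic reticulum, where tapasin, the product of Tapbp, holds the empty heavy chain at the transporter. NLRC5 is a nuclear NOD-like receptor family protein that activates the promoters of most of these genes, and interferons raise the pathway as a whole. AT2 cells are known to express class I and, unusually for epithelium, class II molecules.

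Promoters of 4 members are shown, those of both heavy chains because their sequences are close, that of the light chain B2m beside them, and that of Tap1 because it overlaps the window of another member. Windows run from 250 bases before to 50 bases after a RefSeq start site on build GRCm38.p6, and 8 of the 10 members, all but Tap2 and Nlrc5, were matched to one. H2-K1 had a further start site 14 bases away, whose window held the same matches. The windows are chr17:34000284-34000583 on the minus strand for H2-K1, chr17:35262844-35263143 on the plus strand for H2-D1, chr2:122147437-122147736 on the plus strand for B2m and chr17:34187306-34187605 on the plus strand for Tap1. Capitals mark every match, on either strand, to the motifs named here. For NF-kB only the exact letters that form the leftmost capitals of both heavy chains were searched. Other forms of NF-kB sites were not searched and may stand in lowercase in any window, that of B2m included. TTTCACTT is the core of the class I interferon response element, chosen after the sequences were read. An interferon-stimulated response element forms the leftmost capitals of B2m. The last motifs are TGACGC (part of the X2 box, bound by CREB and ATF proteins) and CCAAT (bound by NF-Y). No matches overlapped each other in the printed windows.
H2-K1: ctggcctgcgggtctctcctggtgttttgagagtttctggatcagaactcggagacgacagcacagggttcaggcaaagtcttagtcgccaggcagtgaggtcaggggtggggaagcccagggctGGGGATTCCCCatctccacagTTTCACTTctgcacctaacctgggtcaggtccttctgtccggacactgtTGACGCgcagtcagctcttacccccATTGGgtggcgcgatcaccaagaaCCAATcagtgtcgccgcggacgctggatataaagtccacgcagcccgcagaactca
H2-D1: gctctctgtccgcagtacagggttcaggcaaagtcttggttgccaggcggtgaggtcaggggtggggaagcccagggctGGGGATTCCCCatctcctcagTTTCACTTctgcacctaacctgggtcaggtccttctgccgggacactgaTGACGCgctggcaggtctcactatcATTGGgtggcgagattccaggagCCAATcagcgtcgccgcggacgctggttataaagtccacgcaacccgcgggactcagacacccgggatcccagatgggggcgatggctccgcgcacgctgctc
B2m: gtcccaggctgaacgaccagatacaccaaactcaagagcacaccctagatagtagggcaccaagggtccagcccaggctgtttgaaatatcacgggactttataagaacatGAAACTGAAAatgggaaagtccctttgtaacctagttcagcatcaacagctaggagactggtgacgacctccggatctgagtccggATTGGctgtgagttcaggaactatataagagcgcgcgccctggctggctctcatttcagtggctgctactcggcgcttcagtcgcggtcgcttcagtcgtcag
Tap1: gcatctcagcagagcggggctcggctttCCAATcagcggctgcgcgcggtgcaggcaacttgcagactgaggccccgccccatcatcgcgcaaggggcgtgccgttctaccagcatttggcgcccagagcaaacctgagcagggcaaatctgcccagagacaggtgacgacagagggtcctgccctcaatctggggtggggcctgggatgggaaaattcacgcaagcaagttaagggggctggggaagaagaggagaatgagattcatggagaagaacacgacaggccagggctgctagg

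The H2-K1 and H2-D1 windows were 89.7% identical over 242 aligned positions and held the same motifs in the same order. In H2-K1 the NF-kB match began 125 bases, the TTTCACTT match 104 bases and the TGACGC match 55 bases before the start site. In H2-D1 the same matches began 171, 150 and 101 bases before it. The exact NF-kB letters were found in 10 of all 32851 promoter windows (0.0304%). Both overlapping windows of H2-K1 and that of H2-D1 were among the 10, so H2-K1 was counted more than once. That share belongs to the exact letters only and is not a rate for NF-kB sites in general. TTTCACTT was found in 1.60%, the interferon-stimulated response element in 3.44%, TGACGC in 7.40% and CCAAT in 37.4%. The B2m window held the interferon-stimulated response element 139 bases and CCAAT 53 bases before the start site. The Tap1 window held CCAAT, and 275 of its bases also lie in the window of Psmb9, which is transcribed in the opposite direction. A match describes letters in a window and is not evidence of binding.

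Sequencing depth was 22511461 to 30695994 counts per library, and a count of 0 allows up to 3 counts, or 0.0915 to 0.137 TMM-normalised CPM (the count scaled to library size) per gene. Such limits cover counting error only. Dlk1 itself had at most 2 counts in any library of either group, so its counts could not check the genotypes. AT2 markers were abundant in all 6 libraries, the 10 markers summing to 141228 to 169141 CPM in the mutants and 168896 to 196782 CPM in the wild types. Mutant 1 stood apart, with the highest value of all libraries for 9 of 10 leukocyte, 12 of 12 lymphocyte, 9 of 10 macrophage and dendritic cell, 4 of 4 neutrophil, 5 of 5 endothelial, 5 of 5 fibroblast and 5 of 5 airway markers. Its lymphocyte sum was 191.9 CPM, against 25.6 to 34.3 CPM in the other 5, and its macrophage and dendritic cell sum 410.1 against 16.1 to 74.6 CPM. Leukocytes carry much class I, and in these bulk counts more cells of a type cannot be told apart from more RNA per cell. The part of these cells in the values of mutant 1 was not tested, and the comparisons are also given without it.

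Per kilobase of transcript, the levels lay in tiers in every library. H2-K1 averaged 1056 ± 422 CPM per kb in the mutants and 872.8 ± 81.6 CPM per kb in the wild types (SD, n = 3 each). H2-D1 averaged 952.7 ± 186.4 and 696.6 ± 188.7 CPM per kb, and B2m 766.7 ± 218.3 and 565.3 ± 47.9 CPM per kb, in mutants and wild types. H2-K1 and H2-D1 overlapped within each group, as did H2-D1 and B2m, while in the wild types every H2-K1 value was above every B2m value. The lowest B2m value (534.6 CPM per kb) was far above the highest of Tapbp (81.6 CPM per kb). Tapbp followed at 74.0 ± 5.81 CPM per kb in the mutants and 76.2 ± 4.68 CPM per kb in the wild types, and then Psmb8 at 40.3 ± 7.98 CPM per kb in the mutants and 32.9 ± 7.24 CPM per kb in the wild types. Tap2, Tap1, Psmb10 and Psmb9 lay together, with means of 13.5 to 19.6 CPM per kb in the mutants and 11.6 to 16.4 CPM per kb in the wild types. Nlrc5, the regulator, was the rarest transcript, at 1.88 ± 1.29 CPM per kb in the mutants and 0.887 ± 0.110 CPM per kb in the wild types.

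No class I gene was called different between mutant and wild-type cells. In edgeR's quasi-likelihood test with Benjamini-Hochberg adjustment over 12899 genes, 0 of 10 members passed an adjusted p of 0.05, and 0% of all tested genes did. At an unadjusted p under 0.05 edgeR gave 0 members and 849 genes in all (6.58% of those tested, 3.69% higher in the mutants). DESeq2 called 0 members and 46 genes (0.306% of those it adjusted). At an unadjusted p under 0.05 and higher in the mutants, DESeq2 gave 3 members (H2-D1, B2m and Nlrc5) and 4.19% of all genes. limma-voom called 0 members and 0 genes, and gave 1 member (B2m) and 4.76% of genes higher at an unadjusted p under 0.05. The log2 fold change was positive for 9 of 10 members, with a median of 0.28, where 51.1% of all tested genes were positive with a median of 0.0048. Without mutant 1 it was positive for 8 of 10 members, with a median of 0.20, and for 48.1% of all genes. All 10 members overlapped between the groups, while 11.7% of all tested genes did not overlap (5.23% higher and 6.43% lower in the mutants). In 7 of the 10, all but Tap2, Tapbp and Psmb10, mutants 1 and 3 each lay above every wild type, a pattern found in 12.6% of tested genes and looked for after the values were seen. Mutant 2 lay above every wild type in 0 members (25.7% of tested genes) and below every wild type in 4 (29.1% of tested genes).

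**Figure D1:**
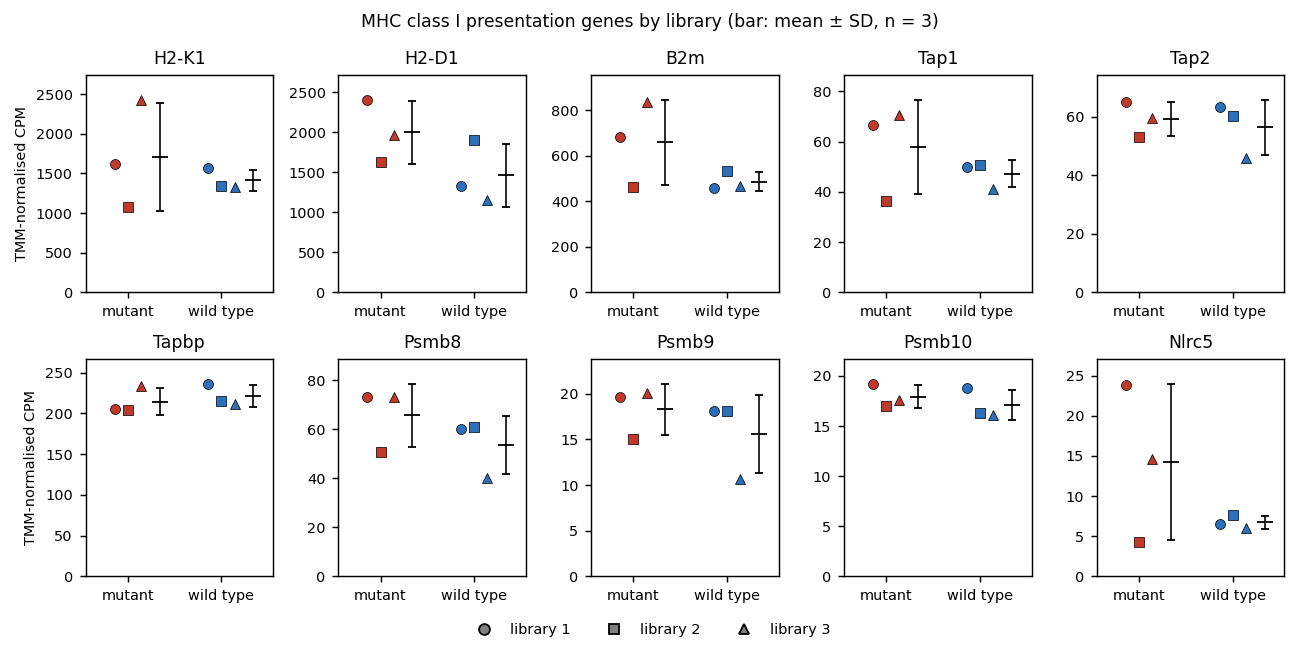
TMM-normalised CPM (y axis) of the 10 class I genes in each of 3 mutant and 3 wild-type libraries (x axis). Symbols give the library number and bars the mean ± SD (n = 3). Mutant 1 (circle) and mutant 3 (triangle) lie above the wild types in 7 panels, and mutant 2 (square) lies above every wild type in 0 panels.

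The heavy chain H2-K1, which presents peptides to CD8 T cells, stood at 1621, 1075 and 2433 CPM in mutants 1, 2 and 3, against 1565, 1347 and 1327 CPM in wild types 1, 2 and 3. Mutant 3 was the highest and mutant 2 the lowest library, so the mutants enclosed the wild types. The log2 fold change was 0.28 ± 0.27 (SE), with an edgeR adjusted p of 0.829. H2-D1, the other classical heavy chain, stood at 2411, 1630 and 1967 CPM in the mutants, against 1332, 1910 and 1151 CPM in the wild types. Here mutants 1 and 3 exceeded all wild types, and mutant 2 lay between them, for a log2 fold change of 0.45 ± 0.22 (SE) and an edgeR adjusted p of 0.739. B2m, the light chain shared by all class I molecules, stood at 681.7, 461.5 and 834.9 CPM in the mutants, against 459.7, 533.6 and 465.2 CPM in the wild types. Mutant 3 held 1.72 times and mutant 1 held 1.40 times the wild-type mean, and mutant 2 lay among the wild types. Its log2 fold change was 0.44 ± 0.21 (SE), with an edgeR adjusted p of 0.739.

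The balance between the heavy chains did not follow genotype. The ratio of H2-K1 to H2-D1 counts was 0.672, 0.660 and 1.24 in mutants 1, 2 and 3, against 1.17, 0.705 and 1.15 in wild types 1, 2 and 3. Mutants 1 and 2 and wild type 2 thus had more H2-D1 than H2-K1 counts, and mutant 3 and wild types 1 and 3 had more H2-K1. Other class I heavy chain genes parted the same libraries. H2-Bl stood at 16.4, 9.28 and 0.0705 CPM in the mutants, against 0.0457, 9.29 and 0.0407 CPM in the wild types. The last of the mutants and the first and last of the wild types lay below what a count of 0 allows, and H2-Q1 and H2-Q10 showed the same division at low levels. H2-Q2 stood at 50.2, 34.6 and 12.3 CPM in the mutants, against 14.1, 35.7 and 10.95 CPM in the wild types. The class II gene H2-DMb2 had the same division, at 46.0, 33.2 and 13.4 CPM in the mutants, against 8.55, 31.8 and 5.21 CPM in the wild types. The class II gene H2-Eb1 divided these libraries in the other direction, at 351.4, 275.4 and 617.8 CPM in the mutants, against 570.4, 308.4 and 515.1 CPM in the wild types. H2-T10, H2-T24 and the class II gene H2-Aa divided the libraries in the direction of H2-DMb2. H2-T23 and the class II gene H2-DMb1 went the way of H2-Eb1, and H2-Q4 and H2-Q6 did not divide the libraries in this manner. All these genes lie in the MHC, and the labels name no MHC haplotype, so whether the alleles of the libraries differ was not tested. In the GENCODE transcripts, 8.79% of 50-base stretches of H2-K1 and 14.3% of those of H2-D1 also occur in a transcript of another gene, so reads may have been split among paralogs, and values of single heavy chains are uncertain. In B2m, Psmb8, Psmb9, Psmb10 and Nlrc5 the share was 0%.

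**Figure D2:**
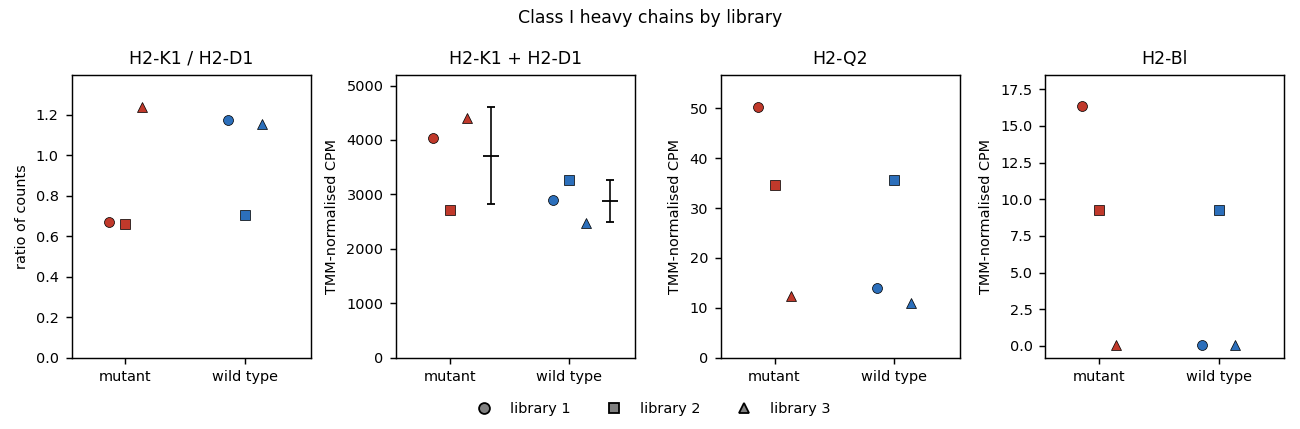
Ratio of H2-K1 to H2-D1 counts, and TMM-normalised CPM of their sum, of H2-Q2 and of H2-Bl (y axes), in each mutant and wild-type library (x axis). Symbols give the library number, and the bars beside the sum are mean ± SD (n = 3). The ratio, H2-Q2 and H2-Bl set mutants 1 and 2 and wild type 2 apart from mutant 3 and wild types 1 and 3, whereas the sum was highest in mutants 1 and 3.

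Summed over both heavy chains, mutants 1 and 3 were the highest libraries. H2-K1 and H2-D1 together stood at 4032, 2705 and 4400 CPM in mutants 1, 2 and 3, against 2897, 3257 and 2477 CPM in wild types 1, 2 and 3. The means were 3712 ± 891.5 CPM in the mutants and 2877 ± 390.4 CPM in the wild types (SD, n = 3 each). Both genes made up 88.4% to 90.5% of the counts of the 22 class I heavy chain genes with a row. With those 22 genes counted as 1 feature, the log2 fold change was 0.38, with an edgeR adjusted p of 0.737. B2m kept pace with the heavy chains, at 0.150, 0.153 and 0.172 counts per heavy chain count in the mutants, against 0.144, 0.147 and 0.169 in the wild types.

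The transporter subunit genes differed in how far they varied. Tap1 stood at 66.7, 36.2 and 70.8 CPM in the mutants, against 49.7, 50.9 and 41.1 CPM in the wild types. Mutants 1 and 3 held 1.41 and 1.50 times the wild-type mean and mutant 2 held 0.767 times, the lowest library. The log2 fold change was 0.29 ± 0.24 (SE), with an edgeR adjusted p of 0.801. Tap2, its partner, stood at 65.0, 53.1 and 59.6 CPM in the mutants, against 63.2, 60.4 and 45.7 CPM in the wild types, and the groups overlapped throughout (log2 fold change 0.071 ± 0.14, SE). Tapbp was the steadiest member, at 205.8, 203.5 and 233.7 CPM in the mutants, against 236.4, 215.2 and 211 CPM in the wild types. Its log2 fold change was -0.043, with a 95% interval of -0.25 to 0.17.

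Of the immunoproteasome genes, Psmb8, which encodes the chymotrypsin-like subunit, stood at 73.2, 50.6 and 73.1 CPM in the mutants, against 60.0, 60.9 and 40.0 CPM in the wild types. Psmb9 stood at 19.7, 15.0 and 20.1 CPM in the mutants, against 18.1, 18.1 and 10.7 CPM in the wild types. In both genes mutants 1 and 3 were the highest libraries and wild type 3 was the lowest. Their log2 fold changes were 0.29 ± 0.20 and 0.23 ± 0.23 (SE), with edgeR adjusted p-values of 0.773 and 0.829. Without wild type 3 they were 0.12 for Psmb8 and 0.012 for Psmb9. Psmb10, which lies outside the MHC, was steadier, at 19.2, 17.0 and 17.6 CPM in the mutants, against 18.8, 16.3 and 16.1 CPM in the wild types, and its log2 fold change was 0.073 ± 0.11 (SE).

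The constitutive counterparts varied little and gave a scale for the immune subunits that does not depend on normalisation. Per kilobase, Psmb8 exceeded Psmb5 in every library, 3.09, 2.09 and 3.28 times in mutants 1, 2 and 3, against 2.40, 3.09 and 1.83 times in wild types 1, 2 and 3. Psmb5 itself was low, averaging 14.4 CPM per kb in the mutants and 13.6 in the wild types. Psmb6 averaged 85.6 and 90.1 CPM per kb, and Psmb7 53.9 and 53.7 CPM per kb, in mutants and wild types. Whether Psmb5 was undercounted was not tested, so the height of the Psmb8 to Psmb5 ratio is uncertain. Psmb9 was the minor partner of Psmb6, at 0.164, 0.139 and 0.169 of its level in the mutants, against 0.150, 0.148 and 0.0872 in the wild types. Psmb10 stood at 0.276, 0.234 and 0.251 of the Psmb7 level in the mutants, against 0.259, 0.238 and 0.229 in the wild types. The groups overlapped in all 3 ratios. On the log2 scale the mutant minus wild-type differences were 0.21, 0.33 and 0.067 (exact two-sided permutation p = 0.5, 0.3 and 0.6, each 0.6 after Benjamini-Hochberg adjustment over the 3 ratios). With 3 libraries a group, 0.1 is the smallest p this test can give.

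**Figure D3:**
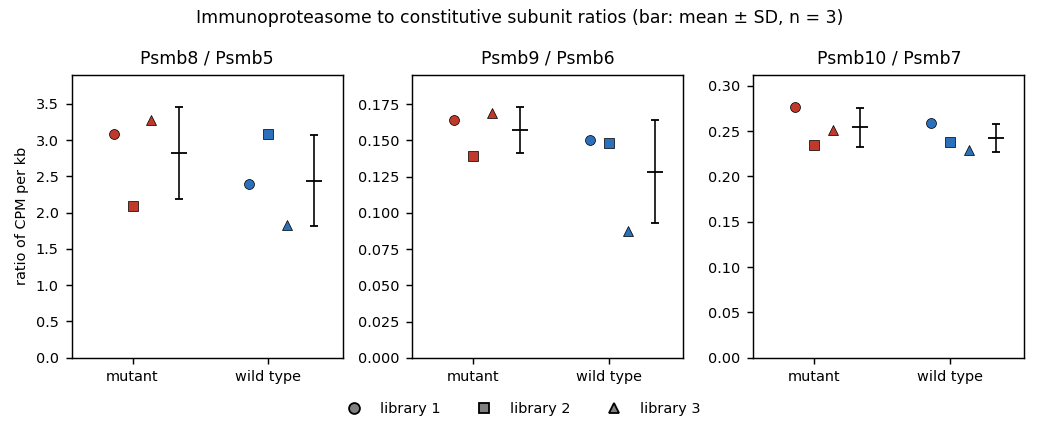
Ratio of immunoproteasome to constitutive subunit levels (CPM per kb, y axes) for the 3 catalytic pairs in each mutant and wild-type library (x axis). Symbols give the library number and bars the mean ± SD (n = 3). The Psmb8 to Psmb5 ratio runs from 2.09 to 3.28 in the mutants and from 1.83 to 3.09 in the wild types, and the groups overlap in each panel.

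Nlrc5, the transcriptional activator of the pathway, varied most of the members. It stood at 23.8, 4.28 and 14.6 CPM in mutants 1, 2 and 3, against 6.49, 7.65 and 6.03 CPM in wild types 1, 2 and 3. Mutant 1 held 3.54 times and mutant 3 held 2.18 times the wild-type mean, while mutant 2 held 0.637 times and was the lowest library. The log2 fold change was 1.09, with a 95% interval of -0.17 to 2.34 and an edgeR adjusted p of 0.739. Nlrc5 had 100 to 781 counts per library, so counting error was small beside the spread among the mutants.

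Leaving out single libraries moved these values without making a call. Without mutant 1 the log2 fold change was 0.50 for Nlrc5 (edgeR adjusted p = 0.866), 0.42 for B2m, 0.30 for H2-D1, 0.31 for H2-K1 and 0.18 for Tap1. Without mutant 2 it was 1.51 ± 0.24 for Nlrc5, 0.64 ± 0.13 for B2m and 0.54 ± 0.12 for Tap1 (SE), each with an edgeR adjusted p of 0.471. Without mutant 3 it was 1.06 for Nlrc5 and 0.46 for H2-D1, but 0.23 for B2m, 0.12 for Tap1 and -0.069 for H2-K1, with edgeR adjusted p-values of 0.805 or more for these 5. In the fit without mutant 2, 4 members (Nlrc5, B2m, Tap1 and H2-K1) had an unadjusted edgeR p under 0.05 and were higher, against 6.69% of all genes. Without mutant 1 and without mutant 3, 0 members had such a p. Mutant 2 was the lowest mutant in these 4 genes, so leaving it out had to raise their fold changes. Mutant 3 is set beside its markers of other cells, whose part in its values was not tested. The pan-leukocyte gene Ptprc stood at 132.2, 3.51 and 7.58 CPM in the mutants, against 5.62, 2.12 and 2.85 CPM in the wild types. The leukocyte list without Lcp1, which was high in every library, summed to 586.5, 19.3 and 37.7 CPM in the mutants, against 40.7, 9.53 and 15.9 CPM in the wild types. Mutant 3 thus lay below wild type 1 in that sum, with 3 of the 9 genes above every wild type. Of 12 lymphocyte genes 7 were above every wild type in mutant 3, where 23.9% of all tested genes were. These 7 rest on few counts, from 3 (Cd3d) to 33 (Cd79a) in mutant 3, whereas the 23.9% covers only genes that passed the filter on low counts. Cd79b, a B cell receptor gene, was high in every library, and without it the lymphocyte sum was 149.3, 4.62 and 5.08 CPM in the mutants, against 5.21, 0.921 and 2.40 CPM in the wild types. Mutant 3 also had 3 of 10 macrophage and dendritic cell genes, 3 of 4 neutrophil genes and 2 of 5 endothelial genes above every wild type. Those neutrophil genes had 8 (S100a8) to 19 (Csf3r) counts in mutant 3. The macrophage and dendritic cell sum of mutant 3 was 58.1 CPM, against 74.6, 16.1 and 35.7 CPM in wild types 1, 2 and 3. In that sum mutant 3 thus lay below wild type 1. The neutrophil sum of mutant 3 was 1.90 CPM, against 0.692 to 1.87 CPM in the wild types, and its endothelial sum was 4.87 CPM, against 2.28 to 4.16 CPM in the wild types.

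**Figure D4:**
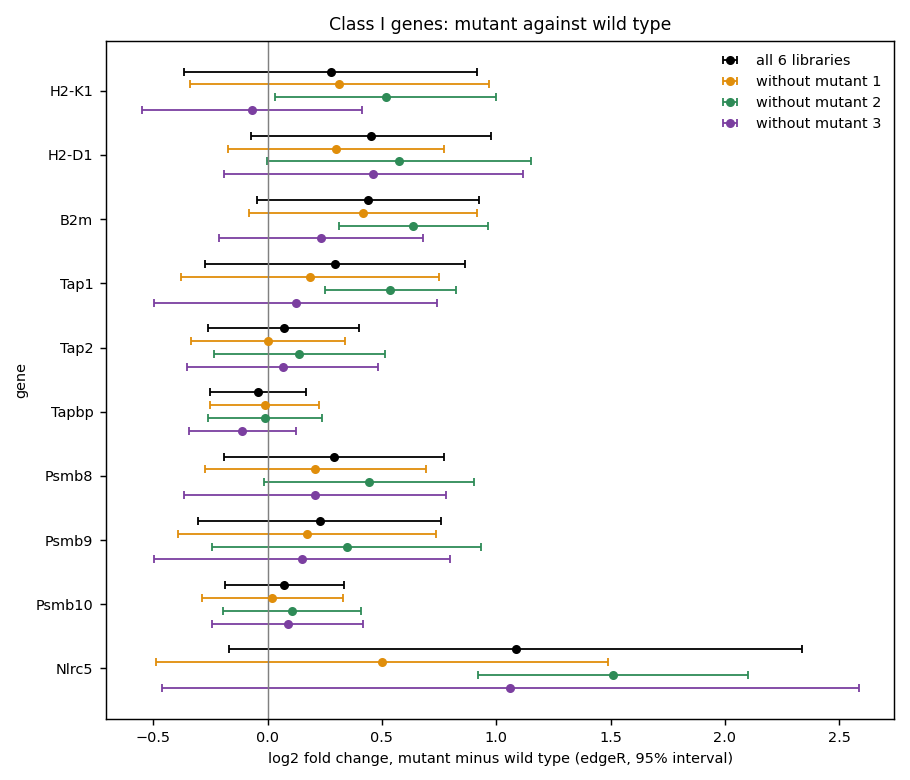
edgeR log2 fold change of mutant against wild type (x axis, with 95% interval) for each class I gene (y axis), with all 6 libraries and without mutant 1, 2 or 3. Nlrc5 lies at 1.09, 0.50, 1.51 and 1.06 in these fits and H2-K1 at 0.28, 0.31, 0.52 and -0.069, and none of the adjusted p-values passes 0.05.

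**Figure D5:**
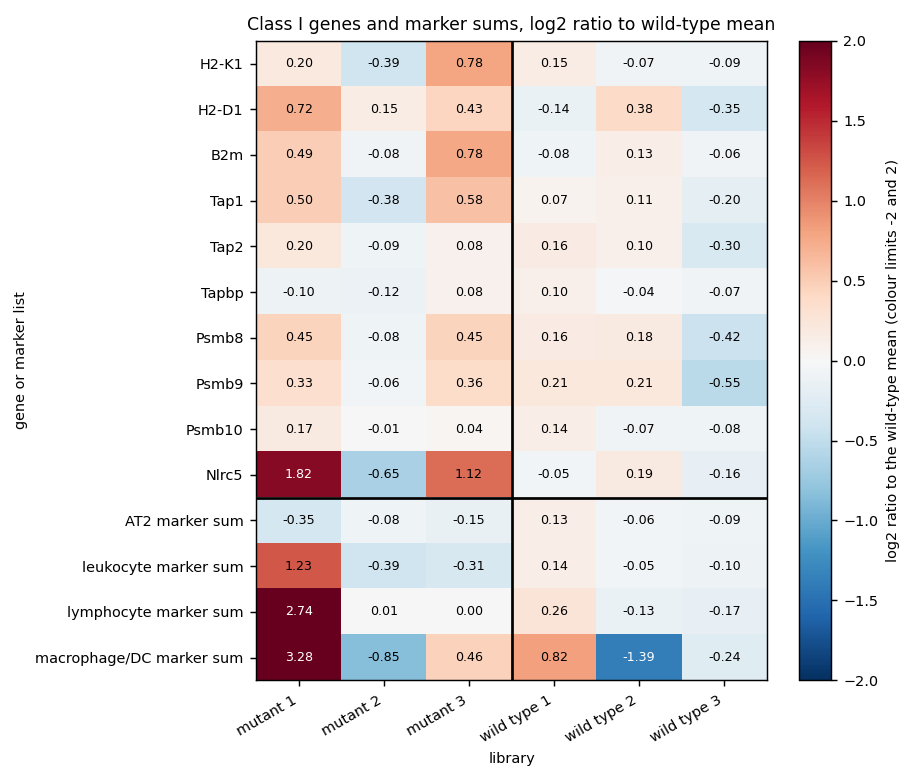
log2 ratio to the wild-type mean for each class I gene and for summed marker lists (rows) in each library (columns), with the value printed in each cell. Mutant 1 lies above the wild-type mean in every class I gene but Tapbp (-0.10) and in the blood cell marker sums shown. Its lymphocyte sum (2.74) and macrophage and dendritic cell sum (3.28) lie beyond the colour scale. Mutant 3 has 1.12 for Nlrc5, 0.46 for the macrophage and dendritic cell sum (0.82 in wild type 1) and 0.00 for the lymphocyte sum. Outside mutant 1 most of the lymphocyte sum is Cd79b.

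The rest of the pathway was examined through lists chosen for their role. Of the other class I heavy chain and class I-like genes, 12 of 23 with a row passed the filter on low counts, 11 of these were positive and 1 negative, and 0 passed the test. Those that passed only through libraries where they were high had to differ between libraries, so the count is a description. Of the positive genes, H2-Bl, H2-Q1, H2-Q2, H2-Q10, H2-T10 and H2-T24 followed the division of libraries described above. Their high side held more mutants than wild types, which by itself raises the mutant mean whatever the cause of the division. H2-T23, the negative gene, divided the libraries in the other direction. The positive genes H2-Q4, H2-Q6, H2-Q8, H2-M3 and Mr1 did not divide them in this manner. H2-Q4, a non-classical heavy chain gene, stood at 266.5, 156.9 and 220.5 CPM in the mutants, against 138.0, 194.9 and 122.2 CPM in the wild types (log2 fold change 0.50 ± 0.23, SE). H2-Q6 stood at 52.0, 18.7 and 70.9 CPM in the mutants, against 28.8, 30.2 and 29.3 CPM in the wild types, with mutants 1 and 3 above and mutant 2 below every wild type, as in Nlrc5. H2-T24 reached 3.72 CPM at most.

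Genes that fold and load the molecules were mostly negative. Of 8 loading and endoplasmic reticulum genes 2 were positive and 6 negative, with a median log2 fold change of -0.10, and 0 passed. Calr, the gene of the chaperone calreticulin, averaged 373.0 ± 33.5 CPM in the mutants and 448.5 ± 87.1 CPM in the wild types (SD, n = 3 each). Pdia3, the disulfide isomerase of the loading complex, averaged 452.6 ± 27.9 and 513.1 ± 54.9 CPM in mutants and wild types, without overlap, at an edgeR adjusted p of 0.746. Erap1, the aminopeptidase that trims peptides in the endoplasmic reticulum, averaged 68.9 ± 4.44 and 60.8 ± 5.81 CPM. Of 5 proteasome activator and assembly genes 2 were positive, 3 were negative and 0 passed, and the 3 with the smallest p, Psme4, Psme3 and Pomp, had log2 fold changes of 0.17, -0.060 and -0.058. Of 5 cytosolic peptidase genes 3 were positive and 0 passed. Tpp2, a peptidase that cuts long proteasome products, averaged 78.2 ± 5.87 CPM in the mutants and 66.3 ± 2.36 CPM in the wild types, the groups did not overlap, and its edgeR adjusted p was 0.737. The peptidase genes Npepps and Nrd1 had log2 fold changes of 0.069 and 0.053. The constitutive genes Psmb5, Psmb6 and Psmb7 had log2 fold changes of 0.076, -0.073 and 0.0060.

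Of 20 regulators of class I genes 12 were positive and 8 negative, with a median log2 fold change of 0.037, and 0 passed. Ciita, the class II counterpart of Nlrc5, stood at 104.2, 89.4 and 94.4 CPM in the mutants, against 73.85, 83.4 and 72.7 CPM in the wild types. All mutants lay above all wild types, mutant 2 included, with a log2 fold change of 0.33 ± 0.09 (SE) and an edgeR adjusted p of 0.737. Ifngr2, a chain of the interferon-gamma receptor, averaged 39.4 ± 2.12 CPM in the mutants and 31.2 ± 4.90 CPM in the wild types, without overlap. Irf1, an interferon-induced activator of class I promoters, averaged 105.4 ± 11.2 and 123.7 ± 14.8 CPM in mutants and wild types. Ifng was counted 73, 0 and 3 times in the mutant libraries, against 2, 0 and 1 times in the wild-type libraries, so outside mutant 1 it was at or below the limit that a count of 0 allows.

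Interferon response genes were positive in 25 of 31 tested, with a median log2 fold change of 0.32, and 0 passed. Without mutant 1, 22 were positive, with a median of 0.18, and 0 passed. Gbp7, Ifi44 and Ddx58 had the smallest p. Gbp7, an interferon-induced GTPase gene, averaged 10.4 ± 0.943 CPM in the mutants and 6.62 ± 1.56 CPM in the wild types (SD, n = 3 each). Ddx58, the gene of the RNA sensor RIG-I, averaged 61.9 ± 4.19 and 53.4 ± 2.28 CPM, and Ifi44 was below 1 CPM throughout. Each library was also set against the mean of the other 5 on the log2 scale, and the median of this list stood at 0.37, -0.11 and 0.21 in mutants 1, 2 and 3, against -0.13, 0.01 and -0.33 in wild types 1, 2 and 3. The class I members stood at 0.32, -0.21 and 0.36 in the mutants, against 0.05, -0.01 and -0.38 in the wild types. Both medians were highest in mutants 1 and 3. The class II list, of which 8 of 10 tested genes were positive and 0 passed, stood at 0.30, -0.16 and 0.28 in the mutants, against -0.08, 0.01 and -0.37 in the wild types. Its genes with the smallest p were H2-Ob (23.9 CPM in mutant 1 and at most 1.16 CPM elsewhere), H2-DMa and H2-Aa, with log2 fold changes of 0.24 and 0.26 for the last pair.

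The tested genes with the most similar course over the 6 libraries were found by the root mean square difference of log2 CPM centred on each gene's mean. Psmb8 and Psmb9 were each other's nearest of all 12899 tested genes, at 0.071, and both lie close to Tap1 in the MHC. The next were Tgm2 and Ces1g for Psmb8, and Ces1g and H2-M3 for Psmb9. For Tap1 and for B2m, Igtp, an interferon-induced GTPase gene outside the MHC, was the second and the first nearest, at 0.079 and 0.11. Hunk and Tnfrsf9 were the others for Tap1, and Ankrd13d and Gins2 for B2m. Hunk, Gins2 and Ces1g were low, with at most 1.16, 1.69 and 1.76 CPM. Igtp stood at 14.6, 9.20 and 15.7 CPM in the mutants, against 10.9, 11.9 and 9.73 CPM in the wild types. The nearest of H2-D1 was H2-Q4 at 0.074, before 2210009G21Rik and Slc16a6. For H2-K1 they were Tas1r1, C1rl and Pdpn, at 0.10, 0.12 and 0.13, of which Tas1r1 had at most 1.20 CPM. For Nlrc5 they were Slc43a3, the complement factor B gene Cfb and Cd38, at 0.26 to 0.27, and Cfb stood at 64.3, 13.5 and 26.2 CPM in the mutants, against 19.7, 17.9 and 15.1 CPM in the wild types. The steady members Tapbp, Psmb10 and Tap2 had Daxx, Edc3 and Camkk2 nearest, at 0.019, 0.023 and 0.032. Ube2z and Tbl2 followed for Tapbp, Ikbkg and Ddx20 for Psmb10, and Atpaf1 and Rhog for Tap2. Outside the pair of Psmb8 and Psmb9, the nearest fellow member ranked 8 for B2m, 13 for H2-K1, 16 for Tap1 and 48 for H2-D1. It ranked 243 for Nlrc5, 292 for Tap2, 1355 for Psmb10 and 1936 for Tapbp.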

How the data were processed

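The authors deposited 1 table of raw counts per library, whole numbers per gene symbol that were not normalized. Per the submitters' processing notes the build was mm9 and the tools CASAVA and DESeq2. For the aligner, the counter, the annotation and strand use, the sources used here give nothing. Groups came from the sample titles.

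Genes were filtered with filterByExpr, which left 12899 genes, scaled by TMM and tested with edgeR 4.0.16 (R 4.3.3, quasi-likelihood F-test, two-sided, mutant minus wild type). DESeq2 1.42.0 and limma 3.58.1 were alternatives. Values are TMM-normalised CPM. Levels per kb used the longest protein-coding GENCODE M21 transcript on GRCm38, and promoters came from RefSeq on GRCm38, so no mm9 coordinate is given. Replicates differed by 18.4 to 76.7 chi-square units per degree of freedom. Same-numbered mutant and wild-type deviations correlated at 0.31, 0.21 and 0.17, all above 0.1, the limit set for treating numbers as pairs. This pairing rests on the data, since the labels name nothing that same-numbered libraries share. The main fit and the permutation tests were therefore unpaired, and a replicate block was run as an alternative. Of 188 list entries 183 had a row. Named genes were the 10 members, the 3 genes with the smallest p of each list and the 3 nearest genes of each member, with others chosen after their values were seen. The genes, lists and tests were chosen with earlier results of these data known. Tested on simulated data with 12899 genes, the fit recovered 54.0% of 2-fold and 73.3% of 4-fold changes, with a mean of 8.67 false among 136 calls. Changes below 2-fold, as estimated for every member but Nlrc5, were not simulated. Neither were shifts shared by many genes of a library, as in mutant 1.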

Additional observations from a re-analysis of the deposited data

How the results depend on the processing

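No member was called under any of the 13 alternatives run (DESeq2 size factors, no filter, at least 1 CPM in 3 libraries, DESeq2, limma-voom with quality weights, the replicate block, summed heavy chains and each library left out). With the replicate block 0 members and 0 genes were called, and the block changed no call. It moved the log2 fold change from 1.09 to 0.82 for Nlrc5, from 0.28 to 0.20 for H2-K1 and from 0.45 to 0.47 for H2-D1. Over all tested genes DESeq2 called 46 genes where edgeR called 0, and leaving out each library gave 0 to 1 genes, the 1 being Gpr133 without wild type 3. For B2m, H2-D1, Nlrc5, Psmb8, Psmb9, Psmb10 and Tap1 the sign was kept in every alternative, with log2 fold changes of 0.23 to 0.64 for B2m and 0.50 to 1.51 for Nlrc5. H2-K1 turned to -0.069 without mutant 3, in a range of -0.069 to 0.52 over libraries left out. Tap2 turned to -0.00016 without mutant 1 and -0.064 without wild type 3, in a range of -0.064 to 0.16. Tapbp turned to 0.030 under limma-voom and 0.0076 without wild type 1, in a range of -0.11 to 0.0076 over libraries left out. Counts of the gene lists without mutant 1 were added after seeing the data. Leaving out each library, the log2 ratio differences ranged from 0.024 to 0.42 for Psmb8 to Psmb5, 0.071 to 0.46 for Psmb9 to Psmb6 and 0.0048 to 0.12 for Psmb10 to Psmb7. The cause of these turns was not tested. H2-D1 moved to 0.30 without mutant 1 or wild type 3 and 0.69 without wild type 2. B2m moved to 0.23 and Tap1 to 0.12 without mutant 3, Psmb8 to 0.12 and Psmb9 to 0.012 without wild type 3, and Psmb10 to between 0.020 and 0.15 over libraries left out. Each member had at least 100 counts in every library.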
